A study of Mus musculus with 17 samples.

Results

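The genes examined here act on collagen after its chains are translated. They are the prolyl hydroxylase subunits P4ha1 and P4ha2, the lysyl hydroxylases Plod1, Plod2 and Plod3, the lysyl oxidases Lox, Loxl1 and Loxl2, the collagen chaperone Serpinh1 and the procollagen C-proteinase enhancer Pcolce. The 10 genes were chosen by name, as a group with shared roles, out of 12393 genes on the arrays, and each was read from its probe set with the highest mean over 17 tumours. A probe set of its own was found for 9 of the 10, since the probe set for Loxl2 is also paired with Gm21451 and was left out. The question was which of these genes follow the fibrillar collagens from tumour to tumour and which do not.

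RNA came from 17 mammary tumours of FVB mice, with 1 Affymetrix array per tumour. All tumours were induced by the Myc T58A mutant under the MMTV promoter, which drives a transgene in mammary epithelium, and all carry the description low expressing. By histology label there were 6 EMT tumours (epithelial to mesenchymal transition), 9 Squamous tumours, 1 Papillary tumour and 1 Microacinar tumour. Neither untreated mammary gland nor tumours of another genotype were compared here, and the ages of the animals are not given in the sources used here. Values are on the log2 scale as deposited, so a difference of 1 is a doubling. The number of arrays limits their precision.

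Collagen chains are modified in the endoplasmic reticulum before they fold. Prolyl hydroxylases make the hydroxyproline that holds the triple helix together, lysyl hydroxylases make the hydroxylysine used in sugar attachment and in crosslinks, and Serpinh1 (Hsp47) binds the folded helix on its way out. Outside the cell Pcolce speeds the removal of the C-terminal propeptide by Bmp1, and lysyl oxidases turn lysine and hydroxylysine side chains into aldehydes that crosslink the fibril. In tumours these enzymes are made by fibroblasts and also by cancer cells, and P4ha1, P4ha2, Plod2 and Lox are known targets of the hypoxia-inducible factors.

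The arrays differed in ways that touch the comparisons below. The titles of 14 arrays are numbered in one format, and those of EMT 5, EMT 6 and Squamous 9 carry the letters TM after a number. The SD over probe sets was 2.46 to 2.51 on the TM arrays and 2.25 to 2.29 on the numbered ones. The formats may mark separate sets of arrays, so title format was a term of every model. Epithelial markers (12 genes, Cdh1 and Epcam among them) had a mean level of 5.84 to 7.14 in EMT 4, EMT 5 and EMT 6, and of 10.03 to 11.20 in EMT 1, EMT 2 and EMT 3, against 9.97 to 11.16 in Squamous tumours. The lower epithelial level that the EMT label names was thus seen in 3 of the 6 EMT tumours. Among these EMT 5 and EMT 6 are on TM arrays, so title format and the lower epithelial level are partly confounded. The 3′ minus 5′ difference of the control probe sets, which is higher in less intact RNA, was 0.20 to 0.51 in EMT and 0.37 to 0.59 in Squamous tumours, and its part in the results was not tested. Squamous 7 and Squamous 8 share a number in their titles, and so do Squamous 5 and the Microacinar tumour. The labels do not say that the tumours came from separate animals, so p-values measure the spread between these tumours only.

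Lox, Pcolce, Plod2 and Loxl1 rose with the fibrillar collagens at slopes near 1, and Serpinh1 and P4ha1 rose with them at lower slopes. The other hydroxylases Plod1, P4ha2 and Plod3 had the lowest slopes and did not pass the limma test. The line between P4ha1 and these genes is not firm. P4ha1 lost its call under 8 alternative settings, and Plod1 gained one under 8 and P4ha2 under 4. By permutation of the tumours, with no term for title format, Plod1 and P4ha2 passed and Plod3 did not. The collagens were summarised as the mean log2 value of Col1a1, Col1a2, Col3a1, Col5a1 and Col5a2, the chains of types I, III and V. This mean was 11.60 at its lowest, 12.70 at the median and 13.68 at its highest in EMT tumours, against 9.58, 12.27 and 13.17 in Squamous tumours. It was 10.52 in the Papillary and 11.65 in the Microacinar tumour. EMT 4 and EMT 5 lay above every Squamous tumour, Squamous 1 and Squamous 2 lay lowest of all 17, and the groups overlapped. Col1a1 averaged 13.20 ± 0.93 in EMT (SD, n = 6) and 12.44 ± 1.26 in Squamous tumours (SD, n = 9), and Col5a1 averaged 10.82 ± 1.20 in EMT and 9.70 ± 1.31 in Squamous tumours. In whole tumours, fewer cells of a type and less RNA per cell cannot be told apart.

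**Figure D1:**
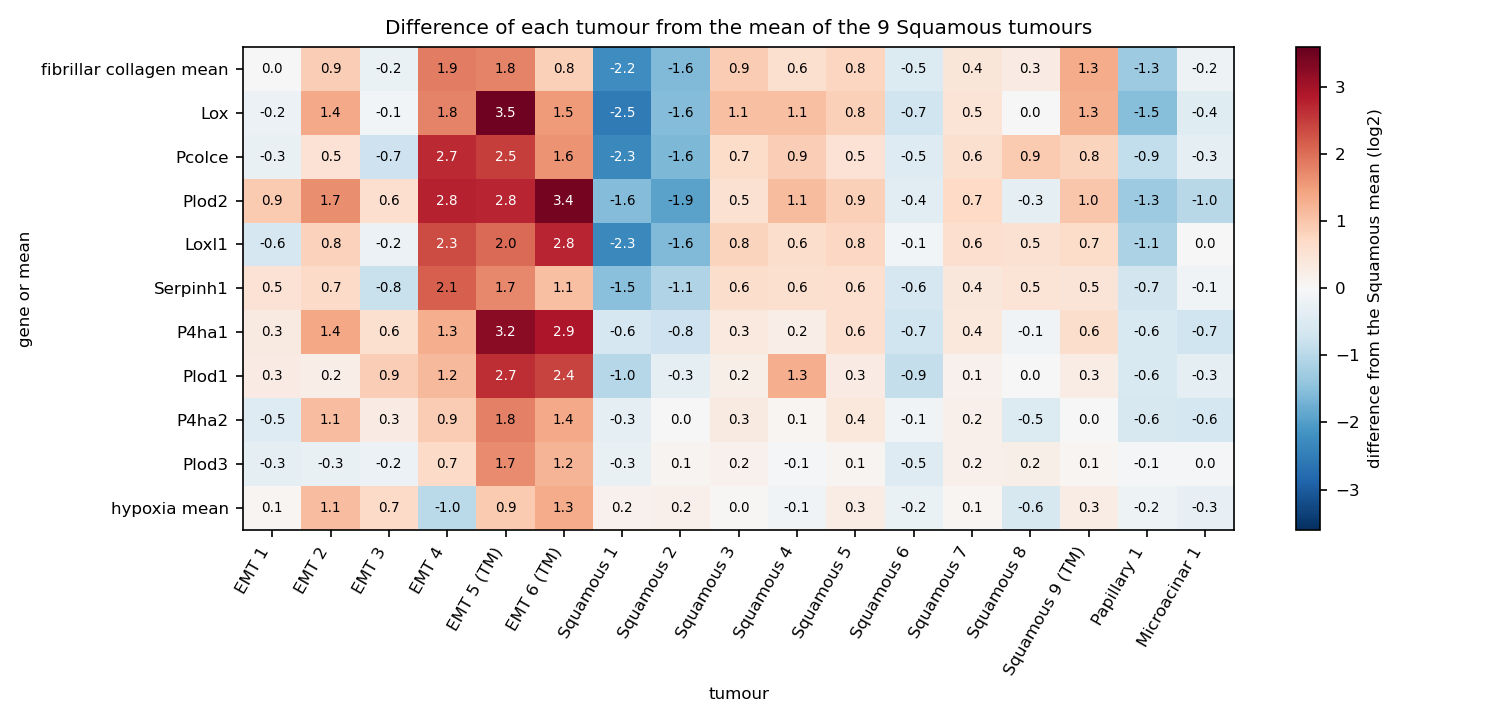
Difference of each tumour (columns, EMT first) from the mean of the 9 Squamous tumours, on the log2 scale, for the fibrillar collagen mean, the 9 measured genes in order of their slope on it, and the hypoxia mean (rows). Squamous 1 reads -2.25 for the collagen mean and -2.53 for Lox but -0.27 for Plod3, and EMT 5 reads 1.79 for the collagen mean and 3.25 for P4ha1.

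P4ha1, the catalytic subunit of the main collagen prolyl hydroxylase, ran from 8.33 in EMT 1 through a median of 9.36 to 11.27 in EMT 5 among EMT tumours. Among Squamous tumours it ran from 7.26 through 8.26 to 8.65. Of the 6 EMT tumours, 4 were above the highest Squamous tumour, and the remaining 2 fell within the Squamous range. P4ha2, the subunit of a second form of the enzyme, ran from 7.92 through 9.39 to 10.19 in EMT tumours and from 7.88 through 8.40 to 8.75 in Squamous tumours. Here too 4 EMT tumours stood above all Squamous ones and EMT 1 lay near the bottom of the Squamous range. Both genes were highest in EMT 5 and second highest in EMT 6, the TM arrays of that histology.

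The slope of P4ha1 on the collagen mean over 17 tumours was 0.52 (SE 0.16, 95% interval 0.18 to 0.86, limma adjusted p = 0.0313). That of P4ha2 was 0.31 (SE 0.12, 95% interval 0.05 to 0.57, limma adjusted p = 0.0925), which misses the threshold of 0.05. The call of P4ha1 was lost without EMT 2 (limma adjusted p = 0.0522), EMT 4 (0.0978), the Papillary tumour (0.0571) or Squamous 2 (0.0704), with slopes of 0.47 to 0.52. It was also lost with histology as a term (slope 0.36, limma adjusted p = 0.0766), with the mean of its probe sets (slope 0.49, limma adjusted p = 0.0685), without both Squamous 1 and Squamous 2 (slope 0.65, limma adjusted p = 0.109) and in EMT tumours alone (slope 0.46, limma adjusted p = 0.272). P4ha2 passed without Squamous 9 (limma adjusted p = 0.0342, slope 0.31) and, with all tumours kept, with array weights (limma adjusted p = 0.0467, slope 0.27). The slope of P4ha1 was higher than that of P4ha2 by 0.21 (95% interval 0.02 to 0.40). This interval took in 0 under 5 alternative settings, among them those without EMT 4, Squamous 1 or Squamous 2.

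The promoters of these subunits are printed because both genes are known to respond to low oxygen, and the response to hypoxia genes is examined below. Each window holds 250 bases before and 50 after the start given for that promoter on GRCm38.p6, 5′ to 3′ on the gene's strand. Capitals mark the letters ACGTG, the core of the hypoxia response element, read on either strand (as CACGT when it lies on the other strand). In P4ha1 (chr10:59323046-59323345, plus strand) it lies 16 bases before this start. The RefSeq gene span of P4ha1 begins further upstream, at 59323197, so the letters lie inside that span. In P4ha2 (chr11:54100674-54100973, plus strand) they lie 78 bases before the start and again at base 11 from the start.
P4ha1: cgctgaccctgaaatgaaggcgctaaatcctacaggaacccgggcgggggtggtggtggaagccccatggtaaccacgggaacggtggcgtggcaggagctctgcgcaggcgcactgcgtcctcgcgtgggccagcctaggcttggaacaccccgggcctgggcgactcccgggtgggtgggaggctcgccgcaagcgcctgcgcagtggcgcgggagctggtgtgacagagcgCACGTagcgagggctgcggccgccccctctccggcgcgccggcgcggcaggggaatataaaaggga
P4ha2: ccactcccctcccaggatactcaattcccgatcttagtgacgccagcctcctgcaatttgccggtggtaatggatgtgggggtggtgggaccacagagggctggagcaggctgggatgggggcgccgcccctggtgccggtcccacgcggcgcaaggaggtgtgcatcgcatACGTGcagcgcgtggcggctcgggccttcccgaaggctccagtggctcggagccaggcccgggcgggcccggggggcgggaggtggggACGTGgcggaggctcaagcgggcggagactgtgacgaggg

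Plod2, the lysyl hydroxylase of the collagen telopeptides, where crosslinks form, had the widest spread of the hydroxylases. It ran from 8.79 in EMT 3 through 10.39 to 11.60 in EMT 6 among EMT tumours, and from 6.24 in Squamous 2 through 8.71 to 9.32 in Squamous 4. Of the EMT tumours 4 lay above all Squamous ones, and 5 Squamous tumours lay below all EMT ones. Its slope on the collagen mean was 1.03 (SE 0.19, 95% interval 0.64 to 1.43, limma adjusted p = 0.00175).

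Plod1, which hydroxylates lysines of the helical part, ran from 8.74 through 9.53 to 11.18 in EMT tumours and from 7.48 through 8.65 to 9.83 in Squamous tumours. The 2 EMT tumours above the highest Squamous tumour were EMT 5 and EMT 6, and the highest Squamous tumour was Squamous 4. Its slope was 0.46 (SE 0.16, 95% interval 0.13 to 0.80, limma adjusted p = 0.0517), just short of the threshold. It passed without EMT 3 (limma adjusted p = 0.0440), EMT 6 (0.0284) or Squamous 9 (0.00839), with slopes of 0.47 to 0.50. With all tumours kept, it passed under quantile normalization (limma adjusted p = 0.0420), with array weights (0.0225) and among genes above the median level (0.0395).

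Plod3, a lysyl hydroxylase that also adds glucose and galactose to hydroxylysine, was the flattest gene of the set. It ran from 9.25 through 9.81 to 11.26 in EMT tumours and from 9.10 through 9.66 to 9.77 in Squamous tumours, and the SD was 0.86 (EMT) against 0.23 (Squamous). In Squamous 1 and Squamous 2 the collagen mean differed from its Squamous mean by -2.25 and -1.59, and Plod3 differed from its own by -0.27 and 0.10. The higher values were in EMT 4, EMT 5 and EMT 6, at 10.26, 11.26 and 10.79. Its slope was 0.15 (SE 0.09, 95% interval -0.05 to 0.34, limma adjusted p = 0.302). Among the 3 lysyl hydroxylases the slope of Plod2 exceeded that of Plod3 by 0.89 (95% interval 0.47 to 1.31), and that of Plod1 differed from that of Plod2 by -0.57 (95% interval -0.89 to -0.25). The slope of Plod1 exceeded that of Plod3 by 0.32 (95% interval 0.03 to 0.60). That interval took in 0 under 4 alternative settings, among them those without the Papillary tumour, Squamous 1 or Squamous 2.

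Lox, the founding lysyl oxidase, followed the collagens most closely of the 9 genes by correlation. It ran from 9.66 through 11.32 to 13.37 in EMT tumours and from 7.34 through 10.37 to 11.15 in Squamous tumours. The lowest value was in Squamous 1 and the highest in EMT 5, 4 EMT tumours stood above all Squamous ones, and the groups overlapped. Its slope was 1.14 (SE 0.09, 95% interval 0.94 to 1.33, limma adjusted p = 3.7e-06). Another probe set of Lox with a mean of 4.72 did not vary with the one used (r = -0.11), whereas the other probe sets of the measured genes had r of 0.98 to 0.99 with the one used.

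Loxl1, a lysyl oxidase best known for crosslinking elastin, ran from 8.61 through 10.64 to 11.96 in EMT tumours and from 6.89 through 9.81 to 10.02 in Squamous tumours. EMT 1 and EMT 3 were below the Squamous median, and 4 EMT tumours were above the highest Squamous tumour. Its slope was 0.99 (SE 0.13, 95% interval 0.71 to 1.27, limma adjusted p = 0.000211). The slopes of Lox and Loxl1 differed by 0.14, with a 95% interval of -0.19 to 0.48 that leaves room for a difference in either direction.

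Serpinh1, the collagen chaperone, ran from 9.76 through 11.44 to 12.70 in EMT tumours and from 9.05 through 11.01 to 11.18 in Squamous tumours. It was highest in EMT 4, where the collagen mean was also highest, and 4 EMT tumours lay above all Squamous ones. Its slope was 0.80 (SE 0.09, 95% interval 0.61 to 0.99, limma adjusted p = 5.01e-05). Pcolce, the enhancer of procollagen cleavage, ran from 9.67 through 11.49 to 13.11 in EMT tumours and from 8.09 through 10.99 to 11.36 in Squamous tumours. EMT 4 was again the highest, 3 EMT tumours lay above all Squamous ones, and Squamous 1 was the lowest. Its slope was 1.06 (SE 0.11, 95% interval 0.83 to 1.29, limma adjusted p = 2.5e-05), which exceeded that of Serpinh1, as the difference Serpinh1 minus Pcolce was -0.26 (95% interval -0.42 to -0.10), an interval that took in 0 without both Squamous 1 and Squamous 2. Serpinh1 and Pcolce had the highest correlation of the 36 pairs of measured genes (r = 0.97).

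Their promoters are shown as those of genes that followed the collagens, in the same layout. Serpinh1 (chr7:99353190-99353489, minus strand) holds the letters once, 171 bases before the start, and Pcolce (chr5:137611355-137611654, minus strand) does not hold them in this window. The RefSeq gene span of Pcolce begins at 137611522, upstream of the start used for its window. Over the 6 promoters given for this set, 4 held ACGTG on either strand, against 19.6% of 32851 windows of the same length. They were those of P4ha1, P4ha2, Serpinh1 and Plod3, where it lies 54 bases before the start, and not those of Plod1 and Pcolce. No promoter was given for Plod2, Lox, Loxl1 or Loxl2. The longer E-box CACGTG, which contains the same letters, was in 0 of the 6 and in 7.15% of all windows. A match of letters is a description of the window only.
Serpinh1: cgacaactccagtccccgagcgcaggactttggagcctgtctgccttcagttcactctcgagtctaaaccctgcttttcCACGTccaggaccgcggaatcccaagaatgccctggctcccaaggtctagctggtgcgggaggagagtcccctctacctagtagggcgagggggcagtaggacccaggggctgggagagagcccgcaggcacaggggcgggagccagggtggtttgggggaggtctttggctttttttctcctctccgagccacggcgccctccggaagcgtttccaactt
Pcolce: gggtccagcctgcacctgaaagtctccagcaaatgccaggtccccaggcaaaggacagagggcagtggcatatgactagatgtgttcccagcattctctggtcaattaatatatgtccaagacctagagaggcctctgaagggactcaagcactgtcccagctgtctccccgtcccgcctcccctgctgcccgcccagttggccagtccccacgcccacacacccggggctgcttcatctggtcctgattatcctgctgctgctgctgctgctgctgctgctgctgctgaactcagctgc

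**Figure D2:**
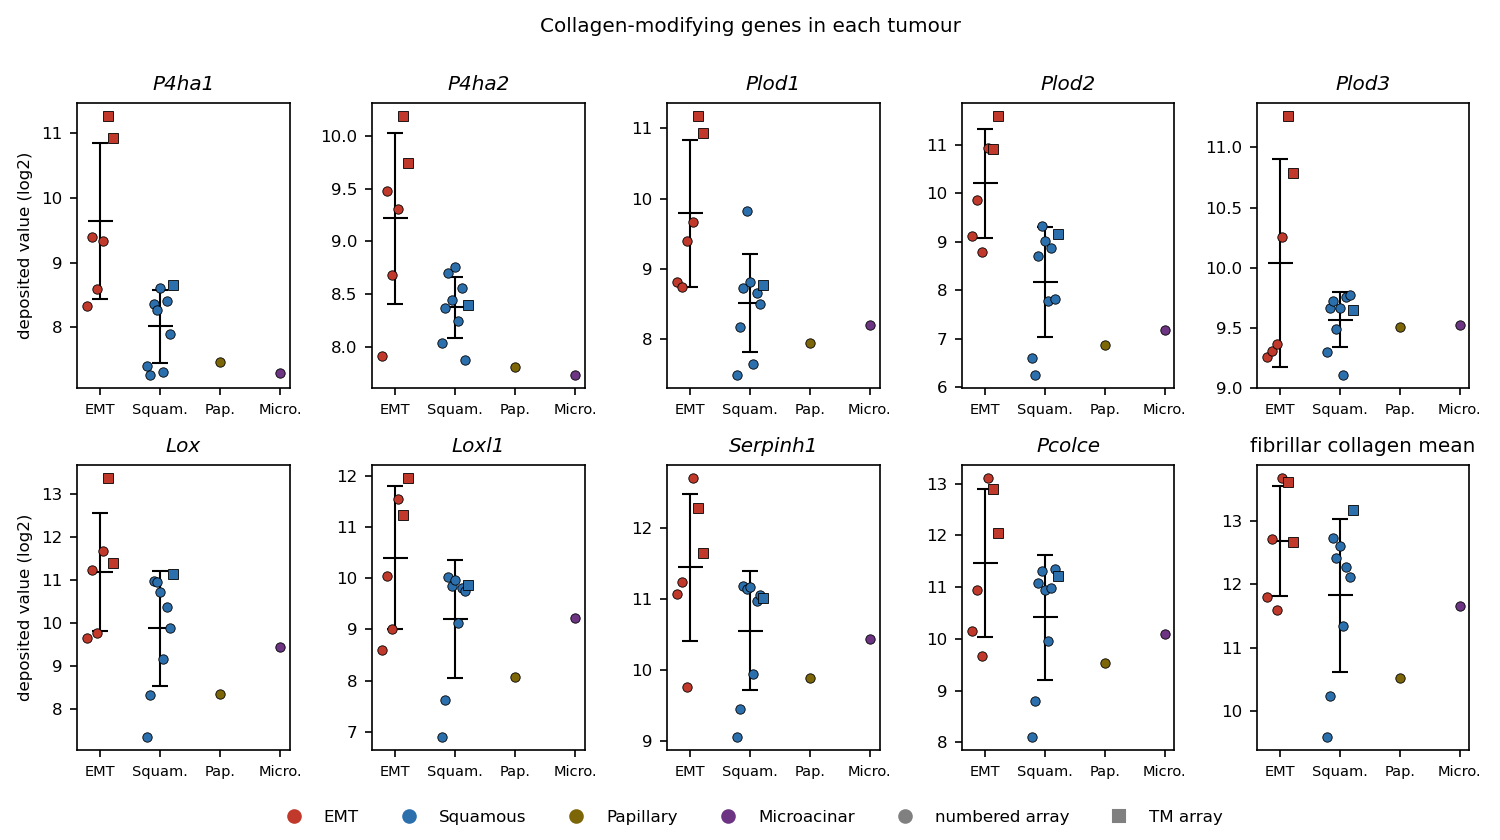
Deposited log2 value (vertical axes, scaled per panel) of the 9 genes and of the fibrillar collagen mean in EMT, Squamous, Papillary and Microacinar tumours, 1 point per tumour, squares for TM arrays, with mean and SD of the EMT (n = 6) and Squamous (n = 9) groups. The groups overlap in every panel, and Plod3 ranges from 9.10 to 9.77 in Squamous tumours.

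In all, 6 of the 9 genes rose with the collagen mean by limma over 12388 genes, with a median slope of 0.80 against -0.01 over all genes tested. The share of all genes called with a positive slope was 7.89%. By permutation of the tumours, Pearson's r passed for 8 of the 9, with Plod3 as the exception, against 12.1% of all genes with a positive call, and Spearman's rho passed for the same number, against 13.8%. These tests hold no term for title format. For Lox r was 0.958 and rho 0.966, each with a permutation p of 1e-05, the smallest that the resamples can give, and adjusted p of 0.000677 and 0.000551 over all genes. Lox ranked 7 of 12388 genes by r, Pcolce 18 (r = 0.942, rho = 0.877), Serpinh1 28 (r = 0.931, rho = 0.900) and Loxl1 48 (r = 0.913, rho = 0.926).

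Plod2 ranked 185 with r = 0.857 and rho = 0.838 (permutation p of 5.0e-05 and 7.0e-05, adjusted 0.00147 and 0.00116). P4ha1 came at 677 with r = 0.728 and rho = 0.826 (permutation p of 0.00129 and 0.0001, adjusted 0.0109 and 0.00146). Plod1 had r = 0.703 and rho = 0.713 (permutation p of 0.00186 and 0.00176, adjusted 0.0139 and 0.0107), and P4ha2 r = 0.655 and rho = 0.718 (0.00482 and 0.00197, adjusted 0.0258 and 0.0116). Plod3 had r = 0.562 and rho = 0.571 (permutation p of 0.0185 and 0.0180, adjusted 0.0629 and 0.0590). Without Squamous 1 and Squamous 2, the tumours farthest from the median collagen mean, r was 0.936 for Lox, 0.898 for Pcolce, 0.891 for Serpinh1, 0.839 for Loxl1 and 0.798 for Plod2. It was 0.728 for P4ha2, 0.713 for P4ha1, 0.644 for Plod1 and 0.631 for Plod3 over the same 15 tumours.

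**Figure D3:**
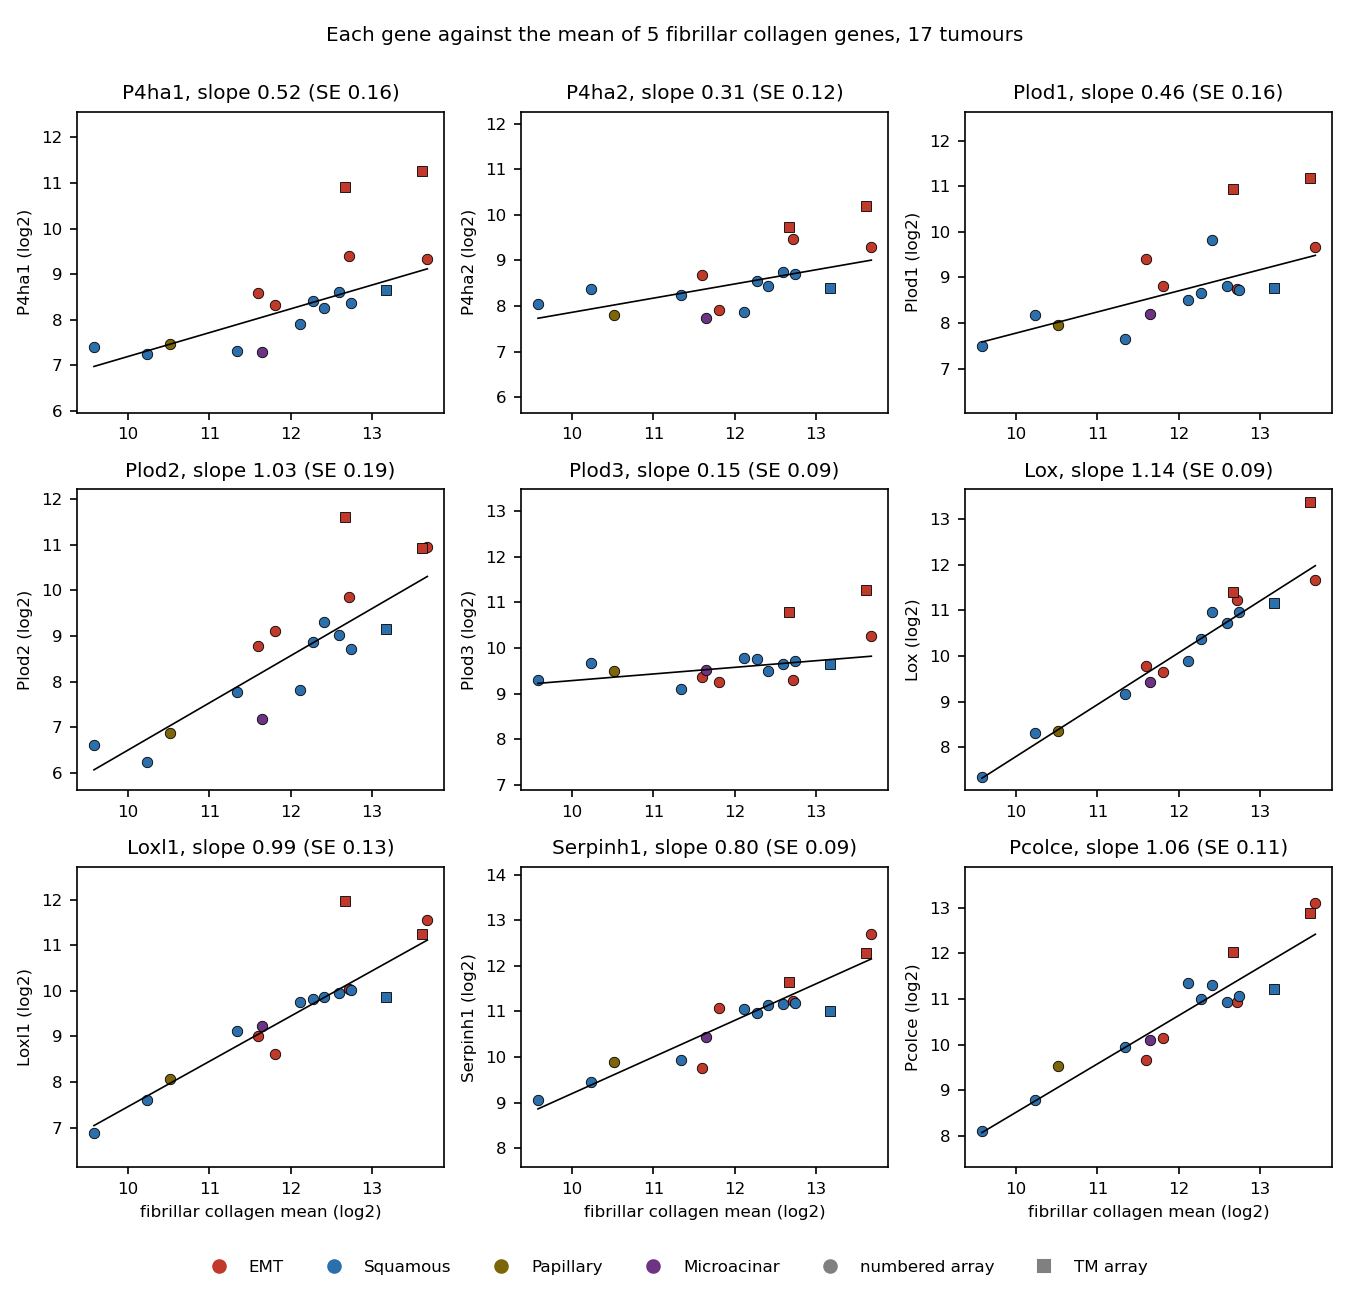
Each gene (vertical axis, log2, all panels spanning the same range) against the fibrillar collagen mean (horizontal axis, log2) in 17 tumours, coloured by histology, squares for TM arrays, with the limma slope drawn through the numbered arrays. Lox has a slope of 1.14 and Plod3 of 0.15, and the EMT tumours on TM arrays lie above the line in every panel.

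Slopes were also set against each other, gene by gene. Of 36 pairs, 24 had a 95% interval of the slope difference that excluded 0, with no adjustment over pairs. This number rests in part on the tumours poorest in collagen RNA, being 18 without Squamous 1, 20 without Squamous 2 and 13 without both, and it was 22 to 24 when any other tumour was left out. Plod3 differed in this way from 7 of the other 8 genes, P4ha2 being the exception (difference P4ha2 minus Plod3 0.17, 95% interval -0.08 to 0.41). Plod2 did not differ beyond its interval from Lox, Loxl1, Serpinh1 or Pcolce, and its interval against Pcolce was -0.45 to 0.40. P4ha1 and Plod1 each had lower slopes than Plod2, Lox, Loxl1 and Pcolce, but without Squamous 1 the intervals of P4ha1 against Loxl1 and Pcolce took in 0.

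The relation was also computed inside each histology. In the 9 Squamous tumours alone, r with the collagen mean was 0.986 for Lox, 0.967 for Loxl1, 0.961 for Serpinh1, 0.959 for Pcolce, 0.927 for Plod2 and 0.888 for P4ha1. It was 0.725 for Plod1, 0.508 for P4ha2 and 0.494 for Plod3. Ranks gave lower values for several genes: rho was 0.983 for Lox, 0.950 for Loxl1, 0.867 for P4ha1, 0.833 for Plod1, 0.817 for Plod2 and 0.80 for Serpinh1, but 0.683 for P4ha2, 0.617 for Pcolce and 0.217 for Plod3. By limma in Squamous tumours 6 of 9 genes were called, against 6.7% of all genes with a positive slope. In the 6 EMT tumours r was 0.965 for Pcolce, 0.926 for Serpinh1, 0.901 for Lox, 0.818 for Loxl1 and 0.789 for Plod2. It was 0.771 for P4ha2, 0.730 for Plod3, 0.660 for P4ha1 and 0.527 for Plod1. In the same tumours rho was 0.943 for Pcolce and for Serpinh1, 0.829 for Lox, 0.657 for Plod2, 0.60 for Loxl1, 0.543 for P4ha1 and for P4ha2, 0.486 for Plod3 and 0.371 for Plod1. By limma in EMT tumours alone 0 of 9 were called, as were 0 of all 12388 genes (0.0%), while 1927 genes had an unadjusted p under 0.05.

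The slopes of EMT and Squamous tumours were compared by an interaction term added with the data in view. None of the 9 genes was called by limma for this difference, against 1.7% of all genes. The difference was 0.63 for Pcolce (SE 0.23, limma adjusted p = 0.174), 0.55 for P4ha2 (SE 0.22, limma adjusted p = 0.217), 0.54 for Plod3 (SE 0.19, limma adjusted p = 0.171) and 0.46 for Serpinh1 (SE 0.19, limma adjusted p = 0.216), each with the higher slope in EMT. For the other 5 genes it lay between 0.08 and 0.35. On the numbered arrays alone, in all histologies, the collagen slope was called for 8 of 9 genes, Plod3 again being the exception, against 9.56% of all genes. With no term for title format it was called for 9 of 9, against 13.1%, and the slope of Plod3 was then 0.28 (limma adjusted p = 0.0497).

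Hypoxia genes offered a second axis, since several of these enzymes are known to be induced by low oxygen. The hypoxia mean was taken over 19 genes of hypoxia and glycolysis, such as Vegfa, Ldha and Bnip3, none of which belongs to the set. It also holds general glycolysis genes such as Aldoa, Tpi1 and Pgam1, so it is not a measure of low oxygen alone. The mean is called the hypoxia mean for short. This mean was 8.99 at its lowest (EMT 4), 10.79 at the median and 11.31 at its highest (EMT 6) in EMT tumours, against 9.39, 10.05 and 10.23 in Squamous tumours. EMT tumours thus spread on both sides of the Squamous range. EMT 4 had the highest collagen mean and the lowest hypoxia mean of the 17 tumours. Its Myc value of 9.18 was also the lowest, and a part of Myc in these values was not tested. Taken alone, the hypoxia mean gave a called slope for 0 of 9 genes by limma, against 0.145% of all genes, where 1161 genes had an unadjusted p under 0.05. Its slope was 0.64 for P4ha1 (limma adjusted p = 0.657) and 0.51 for P4ha2 (limma adjusted p = 0.596). By permutation of Pearson's r 0 of 9 passed as well, against 1.07% of all genes. Without EMT 4 the limma slope of P4ha2 was 1.02 (limma adjusted p = 0.0299).

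With both means in the same model, the collagen slope was called for 8 of 9 genes by limma, against 8.92% of all genes. It was 1.17 for Lox, 1.10 for Plod2, 1.03 for Pcolce, 1.00 for Loxl1 and 0.79 for Serpinh1. For P4ha1 it was 0.59 (limma adjusted p = 0.00455), for Plod1 0.50 (0.0308), for P4ha2 0.36 (0.0198) and for Plod3 0.14 (0.329). The call of Plod1 was lost without EMT 4 (limma adjusted p = 0.133), Squamous 1 (0.0988) or the Papillary tumour (0.0540), and that of P4ha2 without EMT 4 (0.0949, slope 0.22).

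The hypoxia slope at equal collagen was called for 0 of 9 genes, against 0.356% of all genes by limma, where 1818 had an unadjusted p under 0.05. Its largest values were those of P4ha1 at 0.85 (SE 0.26, 95% interval 0.29 to 1.40, limma adjusted p = 0.151), Plod2 at 0.73 (SE 0.35, 95% interval -0.02 to 1.49, limma adjusted p = 0.351) and P4ha2 at 0.64 (SE 0.21, 95% interval 0.19 to 1.08, limma adjusted p = 0.178). Lox had 0.43 (limma adjusted p = 0.246), while Plod3, Serpinh1 and Pcolce had slopes of -0.04, -0.16 and -0.35. This count changed with the setting and was largest without EMT 4. Without it 3 of 9 genes were called, against 2.14% of all genes, and they were P4ha1 (slope 1.22, limma adjusted p = 0.0177), P4ha2 (0.97, limma adjusted p = 0.0112) and Plod2 (1.24, limma adjusted p = 0.0499). Without Squamous 9 the negative slope of Pcolce was called instead (-0.62, limma adjusted p = 0.0201), as it was on the numbered arrays alone (-0.64, limma adjusted p = 0.0203). With no term for title format P4ha1 (1.06, limma adjusted p = 0.0172) and P4ha2 (0.63, limma adjusted p = 0.0443) were called.

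**Figure D4:**
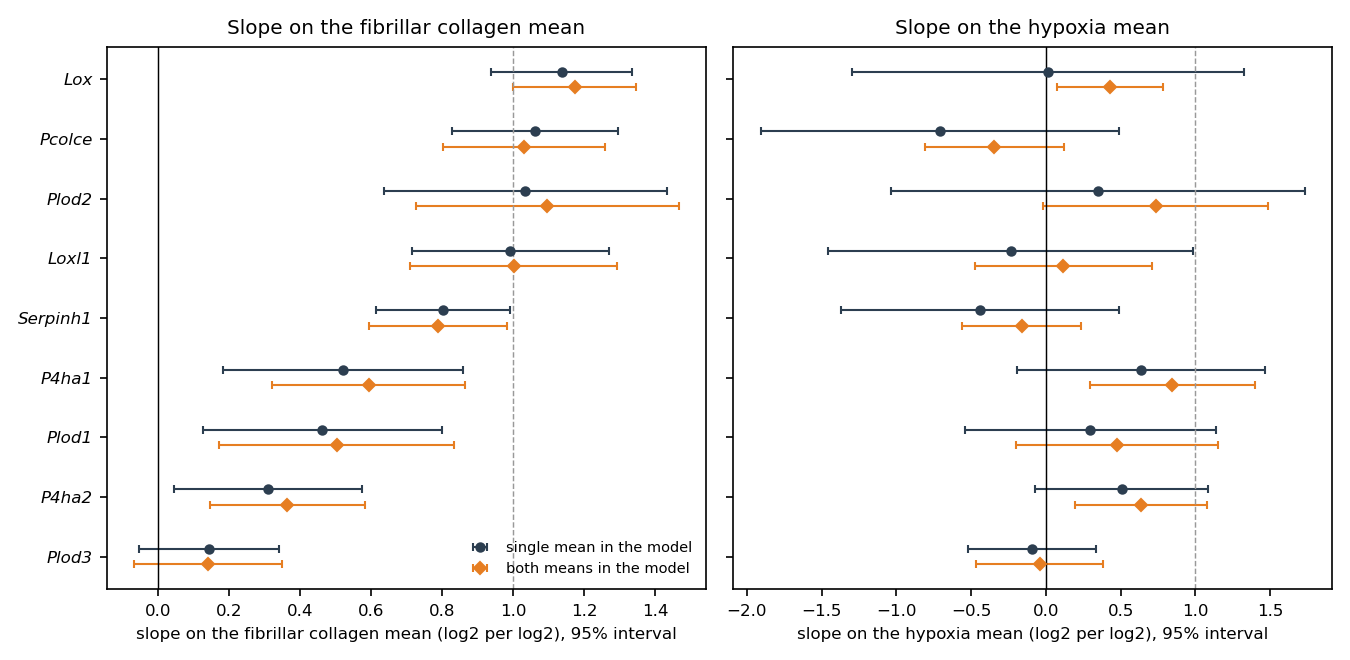
Slopes of the 9 genes on the fibrillar collagen mean (left) and on the hypoxia mean (right), in log2 per log2, with 95% intervals, from models with 1 mean (circles) or both (diamonds). The dashed line marks a slope of 1. P4ha1 and P4ha2 reach hypoxia slopes of 0.85 and 0.64 with both means in the model, and Plod3 stays at -0.04.

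Between the histologies, all 9 genes averaged higher in EMT than in Squamous tumours, and none passed the test. Plod2 averaged 10.20 ± 1.13 in EMT (SD, n = 6) and 8.17 ± 1.13 in Squamous tumours (SD, n = 9), and P4ha1 averaged 9.64 ± 1.20 in EMT and 8.02 ± 0.56 in Squamous tumours. The modelled difference was 1.72 for Plod2 (SE 0.52, 95% interval 0.60 to 2.84, limma adjusted p = 0.211) and 1.27 for P4ha1 (SE 0.30, 95% interval 0.61 to 1.92, limma adjusted p = 0.153). It was 1.00 for Plod1 (SE 0.36, limma adjusted p = 0.252) and 0.69 for P4ha2 (SE 0.26, limma adjusted p = 0.265). These 4 hydroxylases had the lowest adjusted p-values of the set.

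Lox averaged 11.18 ± 1.37 in EMT and 9.88 ± 1.34 in Squamous tumours, with a modelled difference of 0.94 (SE 0.62, limma adjusted p = 0.505). For Loxl1 the difference was 0.89 (SE 0.60, limma adjusted p = 0.514), for Pcolce 0.77 (SE 0.64, limma adjusted p = 0.597) and for Serpinh1 0.75 (SE 0.47, limma adjusted p = 0.482). Plod3 averaged 10.04 ± 0.86 in EMT and 9.57 ± 0.23 in Squamous tumours, and its difference of 0.26 (SE 0.23, limma adjusted p = 0.611) became -0.01 on the numbered arrays alone. By limma 0 of 9 genes were called, and 0 of all 12393 genes (0.0%), while 1778 genes had an unadjusted p under 0.05. The median difference was 0.89 over the 9 genes and 0.01 over all genes, and over the 9 genes it was 0.68 on the numbered arrays alone and 0.20 with array weights, where Pcolce had -0.01.

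With the collagen mean as a further term, the difference between histologies at equal collagen was larger for 4 hydroxylases than for the other genes, and none of these values passed the test. It was 1.21 for Plod2 (SE 0.30, 95% interval 0.56 to 1.85, limma adjusted p = 0.171) and 1.04 for P4ha1 (SE 0.26, 95% interval 0.49 to 1.60, limma adjusted p = 0.171). Plod1 followed with 0.79 (limma adjusted p = 0.329) and P4ha2 with 0.57 (limma adjusted p = 0.348). For Loxl1, Lox, Serpinh1, Plod3 and Pcolce it was 0.28, 0.26, 0.25, 0.18 and 0.09. None was called, nor was any of 12388 genes (0 of 9 against 0.0% by limma, with 1714 genes at an unadjusted p under 0.05). On the numbered arrays alone the values for Plod2 and P4ha1 were 0.90 and 0.64.

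**Figure D5:**
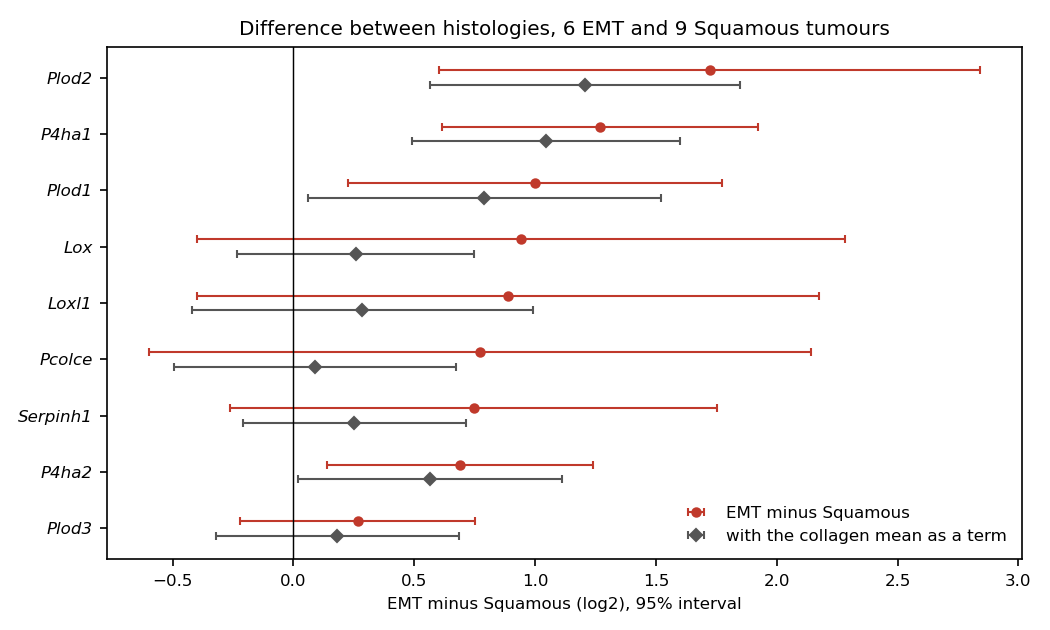
Modelled difference EMT minus Squamous (log2, 95% interval) for the 9 genes, in 6 EMT and 9 Squamous tumours, without (circles) and with (diamonds) the fibrillar collagen mean as a term. Plod2 has 1.72 without and 1.21 with the term, and Pcolce 0.77 without and 0.09 with it.

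The Papillary and Microacinar tumours stand alone and were not tested. Relative to the Squamous mean, the Papillary tumour had -1.31 for the collagen mean, and its 9 genes stood below their Squamous means. Lox was 8.35 and Pcolce 9.53 there, and Plod3 was 9.50. In the Microacinar tumour the collagen mean differed by -0.18. There Loxl1 was 9.22, Serpinh1 10.43 and Plod2 7.17. P4ha2 was lower than in any Squamous tumour both in the Microacinar tumour, at 7.73, and in the Papillary tumour, at 7.81.

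Other genes of collagen processing were read from a list of 26, of which 18 were measured. Of the 18, 10 rose with the collagen mean by limma, against 7.89% of all genes, and none fell, against 1359 of 12388. Their median slope was 0.35. The steepest were Pcolce2, a relative of Pcolce (1.13, limma adjusted p = 0.00288), the lysyl oxidase Loxl3 (0.98, limma adjusted p = 0.00133), the peptidyl-prolyl isomerase Fkbp7 (0.84, limma adjusted p = 0.000209), the procollagen C-proteinase Bmp1 (0.72, limma adjusted p = 1.35e-05) and the prolyl 3-hydroxylase family member P3h3 (0.68, limma adjusted p = 0.000704). The lowest slopes were those of Creb3l1, a transcription factor of secretory cells (-0.25, limma adjusted p = 0.346), Mia3, which helps load collagen into transport carriers (-0.13, limma adjusted p = 0.277), and Tmem38b, an ion channel of the endoplasmic reticulum (-0.07, limma adjusted p = 0.425). P4hb, the partner subunit of P4ha1 and P4ha2, which also works as a general disulfide isomerase, is named here after its value was seen. Its slope was -0.04 (limma adjusted p = 0.597). Of 14 general chaperones of the endoplasmic reticulum, 0 were called by limma in either direction, against 2337 of 12388 genes. Their median slope was -0.01, equal to that of all genes at this rounding.

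Markers of other cell types moved with the collagen mean as well, and their part in the results was not tested. By limma, 7.89% of all genes were called with a positive slope on it and 1359 of 12388 with a negative one. Of 16 fibroblast markers 15 rose with it, with a median slope of 0.89, and their mean level was 9.30 to 11.65 in EMT and 7.87 to 10.85 in Squamous tumours. Of the endothelial markers 8 of 9 rose, of the macrophage markers 6 of 9, of the smooth muscle and pericyte markers 4 of 8 and of the basement membrane collagens 4 of 6. Of 12 epithelial markers 3 fell and the median slope was -0.65. None of the 10 skeletal muscle or 5 adipocyte markers was called in either direction by limma. Macrophage markers were at 11.84 in EMT 5 and 11.50 in EMT 6, where P4ha1, P4ha2, Plod1 and Plod3 were highest, against 8.29 to 10.37 in Squamous tumours. The muscle markers were highest in EMT 4, at 10.97, against 5.05 to 9.15 in Squamous tumours. They also lay above every Squamous tumour in the Microacinar tumour, at 10.18, and in the Papillary tumour, at 9.74. The adipocyte markers were highest in the Microacinar tumour, at 9.43. Fibrillar collagens had a median difference EMT minus Squamous of 0.61 (Col5a1 0.78), other collagen processing genes 0.45 (Pcolce2 1.28), and 0 genes of any of these lists were called by limma for it.

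In the same comparison the largest absolute differences of the lists were those of Hsp90b1 (0.37) among the chaperones, Adm (1.17) among the hypoxia genes, Pi16 (-1.22) among the fibroblast markers and Mrc1 (0.77) among the macrophage markers. Esrp1, a splicing regulator of epithelium, had -2.50, Vwf, a blood clotting protein of endothelium, -0.97, Myh11, the smooth muscle myosin, -1.09, Adipoq, a fat cell hormone, -2.20, Col18a1 0.91 and Myh1, a fast muscle myosin, 2.02. The median was -1.53 over the epithelial markers and 0.31 over the fibroblast markers, against 0.01 over all genes. Over the endothelial markers the median was 0.11, and 6 of the 9 had positive values. Among the 16 fibroblast markers 13 were positive, so Vwf and Pi16 went against most of their lists.

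The genes most alike in pattern were sought by Pearson's r over the 17 tumours, as a description. Those nearest to Lox were Col5a3 (r = 0.973), Nid1 (0.969) and Sparc (0.964), and those nearest to Loxl1 were Mmp2 (0.989), Mrc2 (0.972) and Bicc1 (0.969). Serpinh1 had Pcolce (0.968), Phldb1 (0.958) and Crtap (0.958), and Pcolce had Mrc1 (0.977), Mrc2 (0.974) and Crtap (0.972). Among these, Col5a3 is a type V collagen chain, Mmp2 a gelatinase, Mrc1 the macrophage mannose receptor, Mrc2 an uptake receptor for collagen and Crtap a partner of prolyl 3-hydroxylase. Plod2 was nearest to Tuba1a (0.957), Cald1 (0.956) and Ptprs (0.955).

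The same search was made for the other hydroxylases. P4ha1 had Nr2f2 (0.973), Tbpl1 (0.962) and Trdmt1 (0.958), P4ha2 had Fstl3 (0.950), Fosl1 (0.932) and Kctd10 (0.919), Plod1 had Spata6 (0.962), Dnajc10 (0.951) and Lama4 (0.944), and Plod3 had Vps35l (0.957), Ntpcr (0.955) and Gabarap (0.949). P4ha1 was itself close to P4ha2 (r = 0.919) and Plod1 (r = 0.910). Over the 36 pairs of measured genes r was lowest for Plod2 with Plod3, at 0.653.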

How the data were processed

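The authors deposited 1 log2 value for each of 22690 probe sets on each of 17 arrays of total RNA. The scale was read from the values, and the normalization is not given in the sources used here. Array medians lay between 7.23 and 7.40, so no further scaling was done. A probe set was named from the platform annotation where it had 1 gene symbol (20380 did, 691 had several and 1555 none, besides 64 controls), and 20351 of these matched RefSeq by gene identifier. The probe set with the highest mean stood for each of 12393 genes.

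Models were fitted with limma 3.58.1 in R 4.3.3, with title format as a term and Benjamini-Hochberg adjustment over all genes, except that genes inside a mean were left out of its test, at a threshold of 0.05. EMT and Squamous tumours entered the histology comparison, and all 17 entered the slopes. Correlations were tested two-sided with 100000 permutations in numpy 2.4.6, and figures used matplotlib 3.10.9. Slope differences between genes came from linear models with title format.

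Members, gene lists and tests were chosen with earlier results of these data known. Genes were named by rule: all members, the 5 collagens, of the other processing genes those called between histologies and the 5 largest and 3 smallest slopes, of every other list the largest absolute difference, and the 3 genes most alike to each member. The scripts were tested on simulated data. The alternatives were no title format term, numbered arrays alone, quantile normalization, subtracted medians, probe sets averaged per gene, low genes left out, a trended robust variance, array weights, Squamous 7 and Squamous 8 averaged, other collagen means, histology as a term, each histology alone, permutation tests and leaving out tumours.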

Additional observations from a re-analysis of the deposited data

How the results depend on the processing

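The 9 genes' slopes on the collagen mean were positive under all alternatives run, alone and beside the hypoxia mean, and no called value of a member changed sign. Uncalled values did: 3 of 225 for EMT minus Squamous (Pcolce and Plod3), 12 of 216 at equal collagen, 10 of 171 for the difference of slopes, 25 of 243 for the hypoxia slope alone and 9 of 243 beside collagen. The collagen slope was called for 6 members, for 0 in EMT tumours alone and for 5 to 8 when single tumours were left out. The number was 9 with no title format term, and 8 with array weights, on numbered arrays or by permutation. It was 7 under quantile normalization or above the median level. The slope was called for 5 members with histology as a term, with the mean of probe sets or without Squamous 1 and Squamous 2. Over all genes its 2337 calls became 0 in EMT alone, 1529 with histology as a term, 1188 without Squamous 1 and Squamous 2, 3588 by Spearman permutation and 1571 to 2604 without single tumours. Beside hypoxia it was called for 8 members (6 to 8 without single tumours) and 2713 genes, which became 1623 without the 2 farthest tumours and 1741 to 3041 without single ones. The hypoxia slope beside collagen was called for 0 members, for 2 with no title format term, 1 on numbered arrays and 0 to 3 without single tumours. Its 75 calls over all genes became 43 with array weights, 41 without the 2 farthest tumours, 140 with the mean of probe sets, 505 with no title format term, 440 on numbered arrays, 30 with Squamous 7 and Squamous 8 averaged and 10 to 439 without single tumours. The hypoxia slope alone had 0 calls among members (0 to 1 without single tumours) and 20 over all genes, which became 40 with medians subtracted, 9 above the median level, 8 with histology, 127 with no title format term, 134 on numbered arrays, 10 with Squamous 7 and Squamous 8 averaged, 10 with the trended robust variance, 149 by permutation and 0 to 163 without single tumours. The difference of slopes had 210 calls over all genes, 98 with the mean of probe sets, 86 with no title format term, 335 on numbered arrays and 2 to 538 without single tumours. EMT minus Squamous had 0 calls over all genes and 0 to 14 without single tumours, and at equal collagen 0, with 1 under no title format term, 2 under quantile normalization and 0 to 7 without single tumours. Members called stayed at 0 in these 3 comparisons. The causes of these changes were not tested. Of the values of single genes under the alternatives, 1590 kept their side of the threshold, 21 passed only under the alternative and 18 only in the reported fit. Of the intervals for 5 slope differences within a gene family, 101 kept their side of 0 and 9 took in 0 only under the alternative. No paired analysis was possible because the replicate numbers were given in accession order and pair no tumours.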
